A study of Mus musculus with 6 samples.

Results

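Messenger RNA levels of 10 genes of de novo lipogenesis, the synthesis of fatty acids from acetyl-CoA, were examined in the livers of fasted mice treated with FGF19 or vehicle. The genes were the rows of 10 listed symbols among the 23284 genes counted: Srebf1 and Mlxipl, which encode the transcription factors SREBP-1 and ChREBP, the enzyme genes Acly, Acss2, Me1, Acaca, Acacb and Fasn, and Thrsp and Pnpla3. Liver RNA was sequenced from 3 mice treated with vehicle and 3 treated with FGF19 at 1 mg/kg. All mice were 8 weeks old, male and of the strain C57BL/6, with no engineered allele named in the labels, had been fasted overnight, and stayed without food for the 6 h of treatment. FGF19 is the human hormone that the ileum secretes after a meal, and its mouse counterpart is FGF15. The comparison asks which of these genes had a different mRNA level 6 h after the hormone was given in the fasted state.

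In de novo lipogenesis, citrate leaves the mitochondrion and is cleaved to acetyl-CoA, acetyl-CoA is carboxylated to malonyl-CoA, and fatty acid synthase joins these units with NADPH into palmitate. The pathway is a hallmark of the fed liver. Insulin acts on it largely through SREBP-1c and dietary carbohydrate largely through ChREBP, and the transcripts of both factors and of their target enzymes are known to be low in fasting. LXR, a receptor for oxysterols, raises transcription of Srebf1, and the orphan receptor SHP (Nr0b2) is a repressor that FGF19 signalling and bile acids act through.

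The upstream sequences of Fasn, Srebf1 and Acss2 are shown first. RefSeq promoters (build GRCm38.p6) of all 10 genes were matched, with 14 transcription start sites, and each was found once, without a mismatch, in the mm9 genome to which the counts refer. The 250 bases before the start are printed 5′ to 3′ on the strand of the gene, and capitals mark matches on either strand to any of 5 motifs: TGACC, 3 bases of any kind and AGTAACC (an LXR response element, whose receptor half-sites form a direct repeat on the complementary strand), CCAAT (bound by NF-Y), GGGCGG (a GC box, bound by Sp1), CACGTG (an E-box, bound by USF) and TCACNCCAC (a sterol response element, bound by SREBP). The first motif was chosen after the sequences had been seen. Fasn and Srebf1 are shown because they hold it, and Acss2 because it is the gene whose difference was most stable.

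Fasn, chr11:120685862-120686111 of mm9, minus strand: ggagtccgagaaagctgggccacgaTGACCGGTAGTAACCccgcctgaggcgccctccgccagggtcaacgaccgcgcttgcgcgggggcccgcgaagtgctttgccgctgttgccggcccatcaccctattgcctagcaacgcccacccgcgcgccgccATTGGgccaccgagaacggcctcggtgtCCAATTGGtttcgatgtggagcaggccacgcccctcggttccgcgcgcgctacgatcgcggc
Srebf1, chr11:60023974-60024223 of mm9, minus strand: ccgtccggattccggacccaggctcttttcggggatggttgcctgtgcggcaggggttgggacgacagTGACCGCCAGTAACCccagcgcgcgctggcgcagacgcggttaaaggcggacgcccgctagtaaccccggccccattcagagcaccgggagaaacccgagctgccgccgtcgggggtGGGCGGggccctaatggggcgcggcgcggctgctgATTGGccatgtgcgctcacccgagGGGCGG
Acss2, chr2:155343529-155343778 of mm9, plus strand: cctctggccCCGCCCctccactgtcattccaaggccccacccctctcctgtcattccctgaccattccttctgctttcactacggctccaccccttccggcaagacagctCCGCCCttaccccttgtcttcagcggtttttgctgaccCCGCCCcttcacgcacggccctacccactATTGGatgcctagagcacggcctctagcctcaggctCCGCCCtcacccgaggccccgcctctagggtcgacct

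The 15-letter LXR motif stood at -225 from the start of Fasn, as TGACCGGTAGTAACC, and at -182 from a downstream start of Srebf1, as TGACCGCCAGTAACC. That Srebf1 start, known as the start of the SREBP-1c transcript, lies 10133 bases downstream of the first base counted for the gene, and its first exon is not among the counted exons. Of 32851 RefSeq promoters of the same 300-base length (250 before to 50 after the start), 6, or 0.0183%, held the motif. Since the motif was chosen after these sequences had been seen, this share does not measure enrichment in Fasn and Srebf1. In Fasn 3 CCAAT boxes followed, at -90, -62 and -59, of which the last 2 overlap. The Srebf1 sequence also held GC boxes at -65 and -6 and a CCAAT box at -30. Acss2 held 4 GC boxes upstream, at -241, -140, -102 and -37, another at +7, and a CCAAT box at -73. CCAAT was found at 10 of the 14 starts, against 37.4% of all promoters, and GGGCGG at 7 of 14, against 35.7%. An E-box was found at 1 start, an upstream start of Mlxipl, against 7.15% of all promoters, and the sterol response element at 1 start, that of Mlxipl used in the counts, at -136 as TCACACCAC, against 1.24%. No searched motif lay in the window of Acaca. In 300 bases, Fasn held 39 CpG dinucleotides and the Srebf1 downstream start 36, against a median of 7 over all promoters. Acaca held 1 and Thrsp 4, while Acss2 held 20 and the Me1 starts 4 and 35. Whether transcription starts at the Acaca position in these livers was not tested, so its window may not be a promoter. These matches describe letters and not occupied sites.

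Of the 10 genes, 9 had enough counts to be tested, and Pnpla3 did not. All 9 tested genes had a lower mean after FGF19, by 0.10 to 0.76 on the log2 scale (50.1% of all genes tested had a lower mean), with a median log2 fold change of -0.69 against -0.00076 over the 12559 genes tested. A gene is said to have fallen or risen here where edgeR's quasi-likelihood test gave an unadjusted p under 0.01, the threshold of the study. Acss2, Acaca, Fasn and Thrsp fell, 4 of 9, and 0 of 9 rose. Over all genes tested, 4.98% fell and 6.20% rose. At a Benjamini-Hochberg adjusted p under 0.05 over all genes, 2 genes were lower, Acss2 and Acaca, against 2.84% of all genes, and 0 were higher, against 4.56%. Every FGF19 mouse was below every vehicle mouse for 5 of the 9 (Mlxipl, Acly, Acss2, Acaca and Thrsp), against 13.8% of all genes. At an unadjusted p under 0.05, 7 were lower, against 11.3% of all genes, and 0 higher, against 11.6%, and DESeq2, limma-voom, edgeR's likelihood ratio test and its exact test also placed 0 higher. The genes were listed with results of these data known, so these counts describe them and were not tested as a set.

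**Figure D1:**
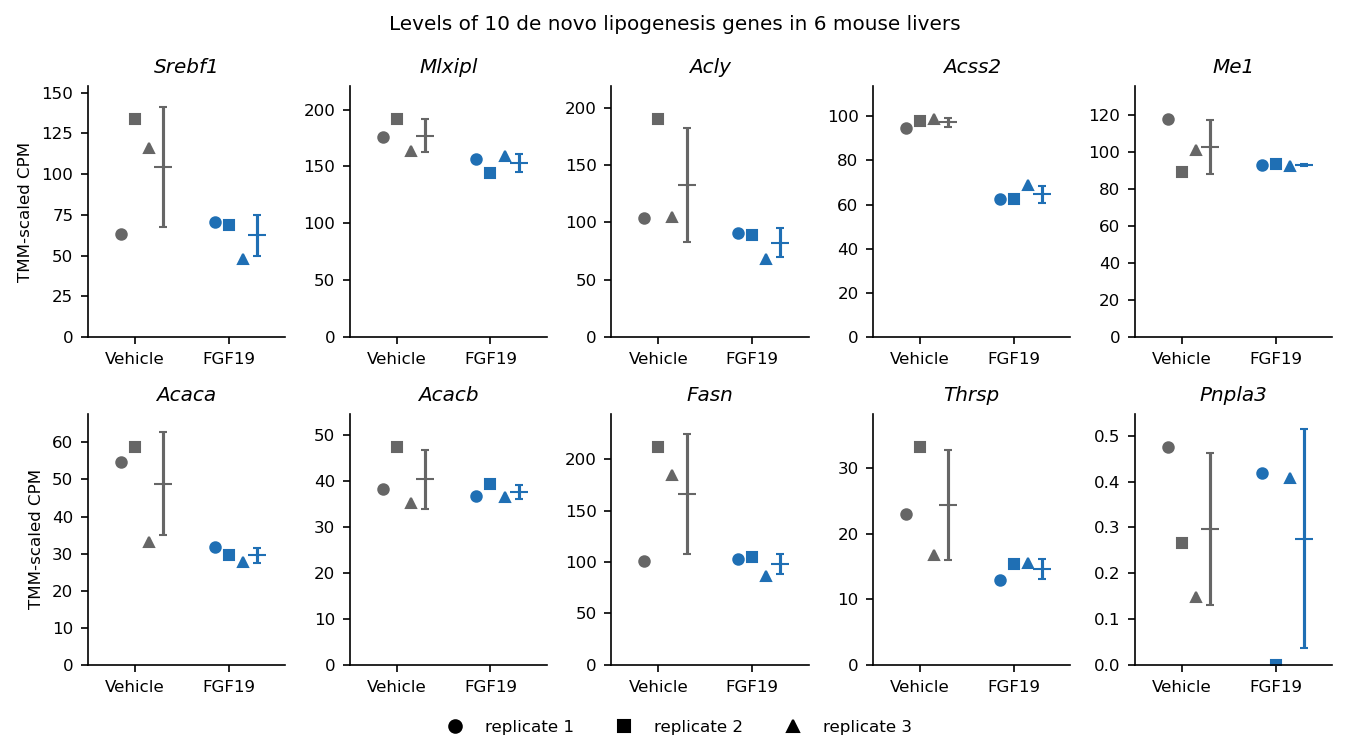
TMM-scaled CPM (reads of a gene relative to library size; vertical axes, each from 0) of each of the 10 genes in the 3 vehicle (grey) and 3 FGF19 (blue) livers, with the marker shape giving the replicate number and a dash with a bar giving the mean ± SD of the 3 mice. Acss2 separated into 94.7 to 98.8 and 62.3 to 69.0, whereas Fasn in Vehicle 1, at 101, lay among the FGF19 livers.

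Levels are given in TMM-scaled CPM, in the order Vehicle 1, 2 and 3 and then FGF19 1, 2 and 3, with mean ± SD over the 3 mice of a group. RNA came from whole liver, so fewer cells of a type and less RNA per cell cannot be told apart.

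Among the regulators, Srebf1 (mm9 chr11:60012591-60034106, minus strand, 19 exons counted) encodes SREBP-1, the membrane-bound factor that is cleaved to activate lipogenic promoters. Its level was 63.0, 134 and 116 CPM in the vehicle livers and 70.7, 68.9 and 48.2 CPM after FGF19. Vehicle 1 lay within the range of the FGF19 livers, so the groups overlapped, and only 1 FGF19 mouse was below all vehicle mice. The mean was 104 ± 36.9 CPM in vehicle and 62.6 ± 12.5 CPM after FGF19. The log2 fold change was -0.74 (SE 0.25, 95% interval -1.30 to -0.18, adjusted p = 0.113), and the unadjusted p missed 0.01. Without Vehicle 1 it passed, with a log2 fold change of -0.999 (adjusted p = 0.0146), and over the 6 fits that each left out 1 library the log2 fold change ranged from -0.999 to -0.52. With all 6 libraries Srebf1 passed by the likelihood ratio test (adjusted p = 0.0428), by the exact test (adjusted p = 0.0442) and without a filter on low counts (adjusted p = 0.0783), and not by DESeq2 (adjusted p = 0.221) or limma-voom (adjusted p = 0.152). The counted exons do not distinguish SREBP-1a from SREBP-1c, and 107 of the 4299 exon bases, or 2.49%, are shared with Rai1 on the other strand, where reads would not have been assigned to either gene.

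Mlxipl (chr5:135582761-135614252, plus strand, 17 exons) encodes ChREBP, which carbohydrate metabolites activate. The 6 livers had 176, 192 and 163 CPM and then 156, 144 and 159 CPM. Every FGF19 mouse was below every vehicle mouse, but the gap between the nearest mice was narrow. The mean was 177 ± 14.3 CPM against 153 ± 7.92 CPM, or 86.5% of vehicle. With a log2 fold change of -0.21 (SE 0.091, interval -0.41 to -0.0045, adjusted p = 0.208), Mlxipl did not pass the test. It remained short of p under 0.01 under all 15 alternative analyses.

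Acetyl-CoA is supplied to the cytosol from citrate by ATP citrate lyase (Acly) and from acetate by acyl-CoA synthetase short chain 2 (Acss2). Acly (chr11:100337666-100389314, minus strand, 29 exons) was at 104, 190 and 104 CPM in vehicle and at 90.5, 89.0 and 67.8 CPM after FGF19. Vehicle 2 stood far above the other 2 vehicle livers, and all FGF19 livers were below all vehicle livers. The mean of 133 ± 49.7 CPM was set against 82.4 ± 12.7 CPM, a log2 fold change of -0.69 (SE 0.23, interval -1.20 to -0.18, adjusted p = 0.103), which did not pass. Without Vehicle 2 the log2 fold change was -0.34, and Acly passed without Vehicle 1 (-0.84, adjusted p = 0.0897) or without Vehicle 3 (-0.83, adjusted p = 0.117). With all 6 libraries it passed by DESeq2 (adjusted p = 0.0168), by the likelihood ratio test (adjusted p = 0.0359), by the exact test (adjusted p = 0.0369) and without a filter on low counts (adjusted p = 0.0684), and not by limma-voom (adjusted p = 0.120).

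Acss2 (chr2:155343779-155388479, plus strand, 18 exons) fell with little spread. Its level was 94.7, 97.8 and 98.8 CPM in vehicle and 62.3, 62.5 and 69.0 CPM after FGF19, so that the groups lay far apart. The mean declined from 97.1 ± 2.14 to 64.6 ± 3.79 CPM, to 66.6% of vehicle. The log2 fold change was -0.59 (SE 0.083, interval -0.77 to -0.40, adjusted p = 0.00339), with all 3 FGF19 mice below all 3 vehicle mice. Acss2 was called in each of the 6 leave-one-out fits, with a log2 fold change of -0.63 to -0.56, and its adjusted p ranged from 1.34e-06 to 0.025 over 15 alternatives. Of its exon bases, 113 (3.99%) are shared with 4930471I20Rik on the other strand.

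Me1 (chr9:86474970-86589947, minus strand, 15 exons), malic enzyme, makes NADPH from malate. It was at 118, 88.9 and 101 CPM in vehicle and at 92.8, 93.2 and 92.4 CPM after FGF19. Vehicle 2 was the lowest of the 6 livers and the groups overlapped. The log2 fold change was -0.14 (SE 0.11, interval -0.38 to 0.096, adjusted p = 0.476), and Me1 was not called in any alternative.

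The 2 acetyl-CoA carboxylases both make malonyl-CoA. ACC1 (Acaca) is cytosolic and feeds fatty acid synthesis, and ACC2 (Acacb) sits at the mitochondrial surface, where malonyl-CoA restrains CPT1. Acaca (chr11:84008940-84215153, plus strand, 54 exons) was at 54.6, 58.9 and 33.0 CPM in vehicle and at 31.7, 29.5 and 27.6 CPM after FGF19. Vehicle 3 lay close above the FGF19 livers, which were all below all vehicle livers. Acaca fell from 48.8 ± 13.9 to 29.6 ± 2.03 CPM, a log2 fold change of -0.72 (SE 0.19, interval -1.14 to -0.30, adjusted p = 0.0489). The call was lost without Vehicle 1 (log2 fold change -0.63), Vehicle 2 (-0.57), FGF19 2 (-0.71) or FGF19 3 (-0.67), and the log2 fold change ranged from -0.94 to -0.57 over the leave-one-out fits. Its adjusted p over 15 alternatives ranged from 0.0034 to 0.145.

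Acacb (chr5:114615527-114700767, plus strand, 52 exons) was at 38.4, 47.6 and 35.3 CPM in vehicle and at 36.9, 39.5 and 36.6 CPM after FGF19. The groups overlapped throughout. The log2 fold change was -0.10 (SE 0.12, interval -0.37 to 0.16, adjusted p = 0.665), and without Vehicle 2 its sign turned, to 0.030.

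The ratio of Acaca to Acacb, each per kb of exon, was 1.34, 1.16 and 0.877 in the vehicle livers and 0.807, 0.702 and 0.709 after FGF19. Every FGF19 ratio was below every vehicle ratio, with means of 1.13 ± 0.232 and 0.739 ± 0.0585. The log2 difference was -0.59, and the 2-sided exact permutation test gave p = 0.1, the smallest that 20 splits of 3 against 3 allow (adjusted p = 0.3 over 3 ratios that were chosen after the data were seen). The ratio of Acly to Acss2 was 0.875 ± 0.321 in vehicle and 0.823 ± 0.168 after FGF19 (log2 difference -0.053, exact permutation p = 0.9). The ratio of Srebf1 to Mlxipl was 0.50 ± 0.170 and 0.349 ± 0.0804 (log2 difference -0.48, exact permutation p = 0.3). In both of the latter ratios the groups overlapped, and the SD of the vehicle livers exceeded the difference between the group means.

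Fasn (chr11:120667272-120685861, minus strand, 43 exons) encodes the multifunctional enzyme that builds palmitate. It was at 101, 212 and 185 CPM in vehicle and at 103, 105 and 86.7 CPM after FGF19. Vehicle 1 was as low as the FGF19 livers, so the groups overlapped, and the other 2 vehicle livers were far above. Fasn fell from 166 ± 58.1 to 98.1 ± 9.89 CPM, a log2 fold change of -0.76 (SE 0.23, interval -1.27 to -0.25, adjusted p = 0.0788). Of the leave-one-out fits, only that without Vehicle 1 kept the call, with a log2 fold change of -1.02. It was -0.54 without Vehicle 2, -0.67 without Vehicle 3, -0.79 without FGF19 1, -0.80 without FGF19 2 and -0.67 without FGF19 3. The call was also lost without TMM scaling (adjusted p = 0.0938) and by limma-voom (adjusted p = 0.114), and the adjusted p ranged from 0.0030 to 0.238 over 15 alternatives.

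Thrsp (chr7:104561467-104566020, minus strand, 2 exons), the Spot 14 gene, encodes a small protein that thyroid hormone and carbohydrate induce and that is known to promote lipogenesis. It was at 23.1, 33.3 and 16.8 CPM in vehicle and at 12.9, 15.4 and 15.6 CPM after FGF19. All FGF19 livers were below all vehicle livers, with Vehicle 3 close to them. Thrsp fell from 24.4 ± 8.33 to 14.6 ± 1.49 CPM, a log2 fold change of -0.73 (SE 0.22, interval -1.22 to -0.25, adjusted p = 0.0749). Of the leave-one-out fits, it kept its call only in that without Vehicle 3, where the log2 fold change was -0.94. It was -0.77 without Vehicle 1, -0.45 without Vehicle 2, -0.65 without FGF19 1, -0.76 without FGF19 2 and -0.78 without FGF19 3, and the adjusted p ranged from 0.0108 to 0.223 over 15 alternatives. By limma-voom Thrsp missed the threshold (adjusted p = 0.103).

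Pnpla3 (chr15:83998246-84019951, plus strand, 8 exons), which encodes a lipid droplet protein and is known as a target of SREBP-1c, was close to the limit of counting. It had 10, 5 and 3 reads in the vehicle livers and 9, 0 and 9 after FGF19. In FGF19 2, where no read was counted, up to 0.138 CPM would have been missed (3 counts), which covers counting error only. Neither group stood apart, and no fold change is given.

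**Figure D2:**
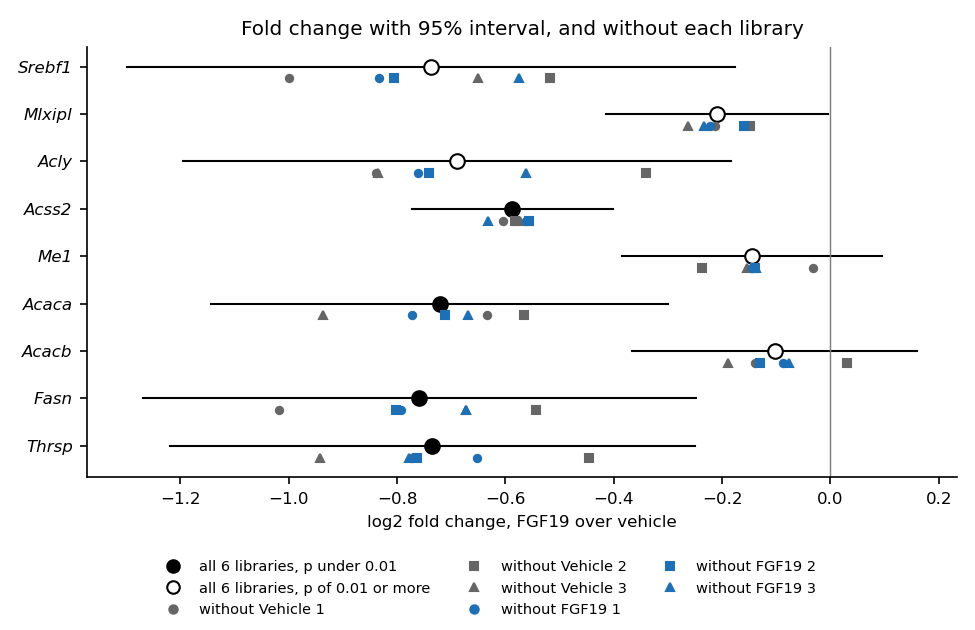
Log2 fold change of FGF19 over vehicle (horizontal axis) for the 9 genes tested, with the 95% interval as a line, a filled circle where p was under 0.01, and small markers for the values when 1 library was left out. The intervals of Acacb (-0.37 to 0.16) and Me1 (-0.38 to 0.096) cross 0. Those of the other genes lie below 0, among them Acss2 (-0.77 to -0.40) and Acaca (-1.14 to -0.30). The values for Acly without Vehicle 2 (-0.34) and for Fasn without Vehicle 2 (-0.54) stand to the right of the others for the same gene.

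Levels between genes were compared as RPKM, which is CPM divided by the kb of exon. In vehicle liver, Mlxipl was the highest, at 48.5 ± 3.92 RPKM. Acss2 at 34.3 ± 0.757, Acly at 30.0 ± 11.2, Me1 at 28.7 ± 4.05, Srebf1 at 24.3 ± 8.59, Thrsp at 23.5 ± 8.03 and Fasn at 16.7 ± 5.85 RPKM followed, and no neighbours in this run of 6 differed beyond their SDs. Acaca at 5.40 ± 1.53 and Acacb at 4.77 ± 0.752 RPKM were lower and within their spread of each other, and Pnpla3 was at 0.0638 ± 0.0357 RPKM. After FGF19 the order of the carboxylases was the other way round, with 4.44 ± 0.187 RPKM for Acacb and 3.28 ± 0.225 RPKM for Acaca. Me1, at 25.9 ± 0.117 RPKM, then stood above Acss2, at 22.8 ± 1.34 RPKM.

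The vehicle livers differed among themselves more than the FGF19 livers. The coefficient of variation was larger in vehicle for 8 of the 9 tested genes, Acss2 being the exception, with medians of 28.4% and 6.87%. Over all genes tested the medians were 9.70% and 11.5%, and 43.3% of genes varied more in vehicle. Vehicle 2 had the highest level of the 3 vehicle livers for 7 of the 9 genes, and the lowest level was in Vehicle 1 for Srebf1, Acly, Fasn and Acss2 and in Vehicle 3 for Mlxipl, Acaca, Acacb and Thrsp. In the FGF19 group, FGF19 3 was lowest for 6 of 9. The 10 genes took 0.0780%, 0.105% and 0.0854% of all counts in the vehicle libraries and 0.0660%, 0.0665% and 0.0582% in the FGF19 libraries, without overlap.

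**Figure D3:**
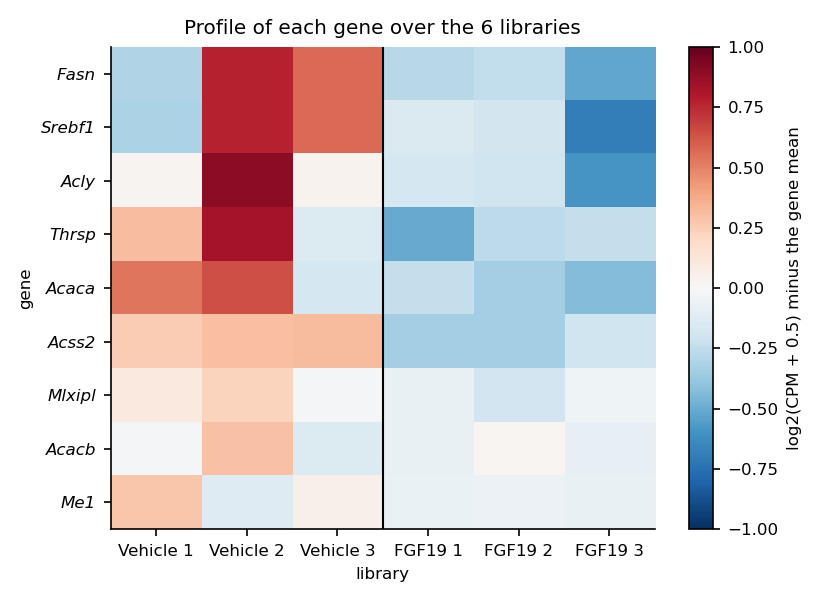
Profile of each tested gene over the 6 libraries, as log2(CPM + 0.5) minus the mean of the gene (colour, red above and blue below the mean), with a line between the groups. All genes but Me1 and Acss2 have their reddest cell in Vehicle 2, and Vehicle 1 is blue for Fasn and Srebf1, whose profiles differed by 0.093.

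Fasn and Srebf1 had nearly the same profile over the 6 livers. The root mean square difference of their profiles was 0.093 on the log2 scale, and 0 of the 11650 other genes with a mean of at least 1 CPM were closer to Fasn. Acly differed from Fasn by 0.268 (49 genes closer), Acss2 by 0.344 (295 genes closer), Thrsp by 0.409 (1299) and Mlxipl by 0.420 (1652). Acacb, Acaca and Me1 were less alike, at 0.429, 0.465 and 0.529, with 1953, 3545 and 6915 genes closer. Outside the 10 genes, the 5 nearest profiles were those of Gpm6a (0.126), Nr1d1 (0.129), Itga8 (0.131), Atp2a3 (0.151) and 2410006H16Rik (0.158). Nr1d1, the circadian repressor REV-ERBα, was at 69.5, 119 and 114 CPM and then at 67.7, 67.0 and 64.7 CPM. These 5 genes were picked for a profile like that of Fasn, so their lower level after FGF19 and a low Vehicle 1 follow from the choice, and their log2 fold changes, -0.78 for Gpm6a, -0.60 for Nr1d1, -0.65 for Itga8, -0.61 for Atp2a3 and -0.82 for 2410006H16Rik, are given as a description, with no test. Only 6 libraries define these profiles, and all genes share their library depths.

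Related genes were counted in 9 lists of 97 genes, of which 96 were in the files and tested. Of these, 12 fell, 7 rose and 77 did not pass, with a median log2 fold change of -0.08. The 12 and 7 correspond to 12.5% and 7.29% of the 96, against 4.98% and 6.20% of all genes. Of the 19 that changed, 10 were called in each leave-one-out fit (among them Slc13a5, Idh2, H6pd, Insig2, Nr0b2, Nr1h4, Scd1, Lpin1 and Pdk4), and 0 of the 19 changed sign. The other 9 lost their call in at least 1 such fit. Leaving out Vehicle 3 did so for Aco1 (-0.39), Elovl1 (0.35), Elovl6 (-0.71), Fgf21 (1.10), Gpam (-0.76), Insig1 (-0.80), Pgls (-0.32), Rgs16 (-0.63) and Usf2 (-0.34), and other libraries did so for all of these but Elovl1 and Fgf21, with values of the same sign.

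The steps that follow palmitate held the most genes that fell. Of 15 desaturases, elongases and glycerolipid genes, 4 fell and 1 rose, with a median of -0.26. Scd1, stearoyl-CoA desaturase, fell from 1826 ± 663 to 814 ± 130 CPM (log2 fold change -1.17, adjusted p = 0.016). Lpin1, a phosphatidate phosphatase, fell from 309 ± 49.6 to 138 ± 60.8 CPM (-1.16, adjusted p = 0.0293). Both were lower than the vehicle livers in every FGF19 liver. Gpam, which starts glycerolipid synthesis (-0.94, adjusted p = 0.0777), and Elovl6, which elongates palmitate to stearate (-0.87, adjusted p = 0.0525), fell as well, though Gpam missed the threshold by DESeq2 (adjusted p = 0.141), by limma-voom and without TMM scaling, whereas Elovl1, an elongase of very long chains, rose (0.41, adjusted p = 0.036).

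Of 6 genes of SREBP processing, 1 fell and 1 rose. The INSIG proteins hold the SREBP escort SCAP in the endoplasmic reticulum. Insig1, itself an SREBP target, was at 156, 98.0 and 162 CPM in vehicle and at 92.6, 79.3 and 46.3 CPM after FGF19, and fell (log2 fold change -0.93, SE 0.25, adjusted p = 0.0574). Insig2 rose from 338 ± 47.9 to 525 ± 37.5 CPM (0.64, adjusted p = 0.0114). The pair therefore differed in direction. By DESeq2 Insig1 missed the threshold (adjusted p = 0.0914), as it did without Vehicle 1 (log2 fold change -0.84) or Vehicle 3 (-0.80).

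Of 13 transcriptional regulators, 2 fell and 1 rose, with a median of -0.02. Nr0b2, which encodes SHP, rose from 22.2 ± 8.51 to 57.9 ± 5.69 CPM (log2 fold change 1.38, adjusted p = 0.00823). Nr1h4, the bile acid receptor FXR, fell (-0.61, adjusted p = 0.0185), as did Usf2, an E-box factor (-0.34, adjusted p = 0.0666). Nr1h3, which encodes LXRα, was at 88.4 ± 8.19 CPM in vehicle and 87.4 ± 10.01 CPM after FGF19 (log2 fold change -0.02, adjusted p = 0.948, interval -0.26 to 0.23). Dnmt3a, a DNA methyltransferase, was at 22.1 ± 2.19 and 25.7 ± 5.35 CPM (0.22, adjusted p = 0.441). The latter pair was named after its values were seen.

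Of 13 genes that supply citrate and acetyl-CoA, 2 fell and 1 rose. Aco1, which converts citrate to isocitrate in the cytosol, was among those that fell (log2 fold change -0.38, adjusted p = 0.0426). Slc13a5, the plasma membrane citrate carrier, rose from 1.49 ± 0.336 to 5.55 ± 0.135 CPM (1.90, adjusted p = 0.000645), the largest change in these lists. Of 11 genes of NADPH supply, Idh2 (-0.39, adjusted p = 0.0219) and Pgls of the pentose phosphate pathway (-0.34, adjusted p = 0.0642) fell and H6pd, which works inside the endoplasmic reticulum, rose (0.47, adjusted p = 0.0285).

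Of 9 partners and targets of ChREBP, 1 fell, the signalling regulator Rgs16 (log2 fold change -0.73, adjusted p = 0.0834), and at an unadjusted p under 0.05 5 were lower and 1 higher, against 11.3% and 11.6% of all genes. Rgs16 missed the threshold without TMM scaling (adjusted p = 0.115). Pklr, liver pyruvate kinase, was at 91.0 ± 7.05 and 77.4 ± 3.00 CPM, and Txnip at 145 ± 21.8 and 103 ± 24.4 CPM, and neither passed; both were named after their values were seen. Of 11 genes that respond to fasting and insulin, 2 rose and 0 fell. Pdk4, which blocks pyruvate oxidation, rose from 11.8 ± 0.924 to 20.3 ± 5.17 CPM (0.78, adjusted p = 0.0292), and Fgf21, a fasting hormone of the liver, from 6.48 ± 1.28 to 14.7 ± 5.63 CPM (1.18, adjusted p = 0.0361). The count of 0 that fell held for the quasi-likelihood test only, which placed 1 lower at an unadjusted p under 0.05, whereas DESeq2, limma-voom, the likelihood ratio test and the exact test each called 1 lower at p under 0.01.

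Of 12 genes that control ACC or use malonyl-CoA, 0 fell and 0 rose by edgeR's quasi-likelihood test, and 0 had an unadjusted p under 0.05 by that test and by limma-voom, with 1 lower by DESeq2, by edgeR's likelihood ratio test and by its exact test. The 3 most abundant were Cpt1a (log2 fold change 0.18), the mitochondrial carnitine palmitoyltransferase, Mlycd (0.015), which degrades malonyl-CoA, and Stk11 (-0.18), a kinase upstream of AMPK. Of the 6 genes of the separate mitochondrial fatty acid synthesis pathway that were in the files, 0 fell and 0 rose, 2 were lower at an unadjusted p under 0.05 by the quasi-likelihood test and by limma-voom, and 1 by the other 3 tests. Its 3 most abundant were Cbr4 (-0.31), Acsf3 (-0.22) and Mecr (-0.05).

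**Figure D4:**
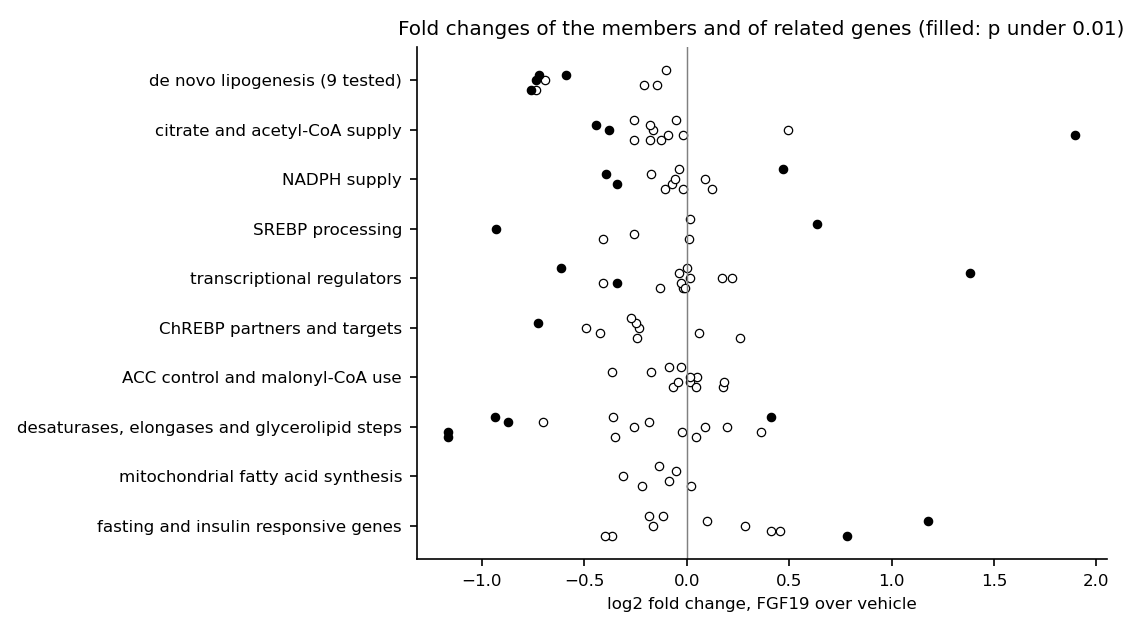
Log2 fold change of FGF19 over vehicle (horizontal axis) of each tested gene of the 9 related lists and of the 9 lipogenesis genes (rows), filled where p was under 0.01. The lipogenesis genes all lie left of 0, whereas each of the related lists has genes on both sides and Slc13a5 lies farthest to the right, at 1.90.

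The livers carried the markers of hepatocytes, whose 8 listed genes summed to 108881 to 113047 CPM in vehicle and 99970 to 110445 CPM after FGF19; only Cyp2e1 among them fell (-0.39, adjusted p = 0.0645). Since adipose tissue also makes fatty acids, adipocyte markers were examined. Their 7 genes summed to 469 to 836 CPM in vehicle and 204 to 318 CPM after FGF19, without overlap, and 1 of the 3 that could be tested fell and 1 rose. Nearly all of that sum was Car3, which hepatocytes also express and which fell from 823, 545 and 460 CPM to 289, 304 and 188 CPM. Lep and Retn were at 0 in every liver, Adipoq was at most 0.106 CPM and Plin1 at most 0.0453 CPM, and Fabp4, which macrophages and endothelial cells also express, rose (0.51, adjusted p = 0.0344). Among Kupffer cell and macrophage markers (216 to 268 and 210 to 255 CPM in all) Marco rose and Vsig4 fell, and neutrophil markers summed to 0.620 to 1.64 CPM in vehicle and 3.44 to 4.78 CPM after FGF19. The red blood cell sum, from 57.2 to 78.6 and from 43.6 to 57.5 CPM, was Alas2 alone, which fell (-0.51, adjusted p = 0.0645), with Hba-a1 and Hbb-b1 listed at 0 in every liver. Endothelial markers summed to 195 to 212 and 188 to 203 CPM, and Clec4g among them fell (-0.38, adjusted p = 0.0736), while stellate cell markers ranged from 187 to 257 and from 180 to 226 CPM. Cholangiocyte markers ranged from 71.9 to 89.0 and from 55.7 to 86.0 CPM, lymphocyte markers from 3.05 to 5.41 and from 1.63 to 3.86 CPM, and pancreatic acinar markers from 5.67 to 7.05 and from 5.57 to 5.70 CPM. The part of these markers in the lower levels of the lipogenesis genes was not tested.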

How the data were processed

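Liver RNA was isolated from 3 vehicle and 3 FGF19 mice and sequenced as paired-end reads on a HiSeq2000. Per the labels and the file headers, the authors trimmed reads with Trimmomatic 0.36, aligned them to mm9 with STAR (the submitters' processing notes give 2.5.3a, and other sources of the study give other versions) and counted them on exons with featureCounts 1.5.2, without strand, with mates counted separately and with reads of several places or genes left out. The deposited count of a gene is a raw count without normalization. Multi-copy sequence and shared exons are therefore under-counted. A second deposited table holds the authors' own log2 fold changes, mean log2 CPM, p-values and FDR, and was not used.

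Totals ranged from 18994654 to 22920056 counts, and 3 counts correspond to 0.136 to 0.159 CPM. No 2 libraries agreed within sampling noise (chi-square per degree of freedom of at least 8.68), so all 6 were kept. The counts were tested with edgeR 4.0.16 (R 4.3.3): filterByExpr (12559 of 23284 genes kept), TMM scaling, and the 2-sided quasi-likelihood test without covariates, with p-values adjusted by Benjamini-Hochberg across the 12559 genes. The kind of edgeR test is not given in the sources used here. CPM and RPKM were computed with TMM-scaled library sizes and the exon lengths in the files. A profile was log2(CPM + 0.5) minus its mean over the 6 libraries.

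The 10 genes, the related lists and the markers were chosen with earlier results of these data known. Named were the 10 genes, each related gene with p under 0.01 (for a list without one, the 3 with the highest RPKM), and the 5 profiles nearest to Fasn. Some related genes are not reported here by name. Alternatives were DESeq2 1.42.0, limma-voom (limma 3.58.1), edgeR's likelihood ratio and exact tests, other scaling and filters, the replicate number as a block, and each library left out. The tests were tested on simulated data with known changes. Sequences were read from RefSeq promoters and located in mm9 by exact match.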

Additional observations from a re-analysis of the deposited data

How the results depend on the processing

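With 3 mice a group, the direction of the lipogenesis genes was more stable than the calls. At p under 0.01, 4 genes were lower with all libraries, 2 by limma-voom (Acss2 and Acaca), 3 without TMM scaling, 5 by DESeq2, 6 by the likelihood ratio test, the exact test and without a filter on low counts, and 1 to 4 when 1 library was left out (1 without Vehicle 2, without FGF19 2 or without FGF19 3, and 2 without FGF19 1). At an adjusted p under 0.05 the count of 2 became 5 by DESeq2, 6 by the likelihood ratio and exact tests, 4 without a filter, 1 without TMM scaling, with at least 1 CPM in every library and by limma-voom, and 1 to 3 when 1 library was left out. The median log2 fold change of -0.69 ranged from -0.71 to -0.45 over the leave-one-out fits, with -0.45 without Vehicle 2. Acacb, at -0.10, ranged from -0.19 to 0.030 over these fits and turned its sign without Vehicle 2; the cause was not tested. No gene of the 9 was higher at p under 0.01 under any of the 15 alternatives. Related genes that fell numbered 12 with all libraries and 7 to 16 with 1 left out (7 without Vehicle 3), and those that rose numbered 7 and 5 to 10. The log2 difference of the Acaca to Acacb ratio ranged from -0.76 to -0.45, that of Srebf1 to Mlxipl from -0.81 to -0.27 and that of Acly to Acss2, which changed sign, from -0.21 to 0.23.

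Same-numbered mice did not deviate together (correlations of -0.03, -0.18 and -0.18 across genes). With 3 mice a group, each set against its group mean, these values cannot decide whether the numbers pair the samples. With the replicate block, 5 lipogenesis genes were lower (2 at an adjusted p under 0.05), with Acly added (adjusted p = 0.0668), the median was -0.64, and 10 related genes fell and 7 rose. Over all genes, 409 fell and 620 rose under the block, against 626 and 779. Without FGF19 3, 1041 fell and 1117 rose. Pnpla3, at 0 to 10 reads, was too shallow for a comparison.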

Other observations

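Apart from Fasn and Srebf1, the 15-letter LXR motif was found in the promoters of Abca1 and Acsl3 and at 2 starts of LOC115486416. Abca1, the cholesterol exporter that LXR is known to induce, held the same letters as Fasn, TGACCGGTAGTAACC, and Acsl3, a long-chain acyl-CoA synthetase, held TGACCCATAGTAACC. Neither passed the test (log2 fold change 0.29, adjusted p = 0.281 for Abca1 and 0.43, adjusted p = 0.239 for Acsl3 by edgeR), and both point estimates were above 0 while those of Fasn (-0.76) and Srebf1 (-0.74) were below. The difference between the pairs was not tested.

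Among the markers of other liver cells, Marco, a scavenger receptor of macrophages, was at 4.67, 4.24 and 9.53 CPM in vehicle and at 28.5, 32.4 and 29.6 CPM after FGF19, a log2 fold change of 2.29 (adjusted p = 0.00105), with no overlap. S100a9, a neutrophil and myeloid protein, rose by 2.16 on the log2 scale (adjusted p = 0.0292) from levels near 1 CPM or less.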
